A study of Mus musculus with 32 samples.

Results

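The cell cycle and proliferation genes examined here are 49 protein-coding genes of 48576 gene identifiers measured in the embryonic mouse brain. They were chosen by their names and roles, from a list of 51. Of the 49, 18 work in or shortly before S phase, 29 work in G2 phase and mitosis, and 2 are the D cyclins Ccnd1 and Ccnd2. Cdt1 and Gins2 are not analysed here. RNA came from the forebrain (Fb) and midbrain (Mb) of mouse embryos of B6C3F1 origin at embryonic day (E) 9.5, in 32 libraries, 16 of each tissue. The study made its knockout line in B6C3F1 eggs and crossed the founder to a B6C3F1 mouse. Its text does not say how the genetic background varied between the sequenced embryos. Values are FPKM, the fragments of a gene scaled to the length of its transcript and to the mapped fragments of the library, as the authors deposited them.

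Each tissue had 6 wild-type (WT) libraries. It also had 4 libraries of embryos with a triple knockout of Cdh6, Cdh8 and Cdh11 and exencephaly, an open brain (TKO_Ex). A further 3 came from Cdh8 and Cdh11 double knockouts with exencephaly (DKO_Ex), and 3 from double knockouts with a cranial defect, a closed and elongated Mb (DKO_CD). For DKO_CD the labels name Cdh6 and Cdh8, and the study's text names Cdh8 and Cdh11. The library titles and column headings name only genes, tissue and replicate. They do not show which DKO libraries had exencephaly and which a cranial defect, and that match was not checked. These genes encode type II cadherins, adhesion proteins of the neural tube wall, and the alleles are small deletions at the start codon, all derived from 1 founder mouse. WT embryos came from WT matings and mutants from matings of triple heterozygotes, so that genotype and litter cannot be told apart. The labels do not say whether the libraries of a group are separate embryos, and p-values measure only the spread between these libraries. In the 12 DKO libraries the column headings and the records name opposite DKO groups. The headings were followed, and following the records would exchange DKO_Ex and DKO_CD in every sentence below.

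Libraries held an estimated 2.08 to 3.43 M fragments. In the Mb the depth was lowest in TKO_Ex (2.08 to 2.47 M) and highest in DKO_Ex (3.29 to 3.43 M), with 2.53 to 3.12 M in WT, and its part in the results was not tested. The neural progenitor gene Sox2 was at 97.6 to 157 FPKM in all 32 libraries. The midbrain gene En1 was at 32.0 to 59.0 FPKM in 5 WT Mb libraries and at 3.57 FPKM in WT Mb replicate 5. Cdh6, a targeted gene, was at 0.345 to 0.388 FPKM in 3 TKO_Ex Mb libraries, but at 3.10 FPKM in replicate 3, inside the WT range of 1.04 to 3.55 FPKM. In the Fb it was at 3.74 FPKM in TKO_Ex replicate 3, against 0.572 to 1.84 FPKM in the other 3 libraries and 2.04 to 4 FPKM in WT. In DKO_CD, which the labels call a Cdh6 and Cdh8 knockout, Cdh6 was at 1.76, 2.11 and 1.29 FPKM in the Mb, inside the WT range, and at 3.43, 1.72 and 2.78 FPKM in the Fb, where only replicate 2 was under WT. Cdh8 was at 0.851 to 2.49 FPKM in all 10 mutant Mb libraries, against 3.45 to 10.1 FPKM in 5 WT Mb libraries and 1.14 FPKM in WT Mb replicate 1, and overlapped WT in the Fb of TKO_Ex and DKO_CD. Cdh11 was at 14.5 to 16.6 FPKM in the TKO_Ex Mb, under the WT range of 17.9 to 28.7 FPKM. In the DKO_Ex Mb it was at 17.6 to 18.7 FPKM and in the DKO_CD Mb at 22.4, 27.2 and 16.6 FPKM. In the Fb, Cdh11 was at 17.1 to 18.7 FPKM in DKO_Ex, under the WT range of 19.5 to 25.3 FPKM. It overlapped WT there in TKO_Ex (19.8 to 21.4 FPKM) and DKO_CD (12.7 to 25.3 FPKM). RNA can remain after a small deletion, so that these values alone do not settle the labels. All alleles came from the same founder. No DKO_CD Mb library fell to the Cdh6 level of 0.345 to 0.388 FPKM, nor did TKO_Ex Mb replicate 3. In the Fb the groups overlapped, with 1.72 FPKM in DKO_CD replicate 2 and 1.84 FPKM in TKO_Ex replicate 1. The reason was not tested. Calls that rest on WT Mb replicate 5 or TKO_Ex replicate 3 are given with and without these libraries, for the members and Pttg1.

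A dividing cell copies its DNA in S phase, grows through G2 phase and separates the copies in mitosis. D cyclins, which signals from outside the cell induce, activate Cdk4 and Cdk6 and lift the block that the retinoblastoma proteins place on E2F transcription factors. E2F then switches on the S phase genes, while the mitosis genes are switched on later, through promoter sites known as the CHR element and the CCAAT box. At E9.5 most cells of the neural tube wall are cycling progenitors, and the first neurons have begun to leave the cycle.

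The promoters of the S phase and mitosis genes differed in these sites, and 6 are shown to let the difference be seen. RefSeq windows from 250 bases before to 50 after the start of transcription (GRCm38.p6) were found for 40 of the 49 genes, 15 of S phase and 25 of mitosis. The letters searched on both strands were TTTGAA and TTCGAA for the CHR element, CCAAT for the CCAAT box, and TTTCCCGC, TTTCGCGC, TTTGCCGC and TTTGGCGC for E2F-like sites. Below are the bases from 125 to 6 before the start, 5′ to 3′ on the strand of the gene, with matches in capitals. TTCAAA and ATTGG are the CHR element and the CCAAT box read on the other strand, and in Mcm6 a pair of E2F-like matches overlap. The first line holds E2F-like matches beside CCAAT boxes (chr1:128359711-128359830, minus strand), the second only a CCAAT box (chr12:24708129-24708248, plus strand). The next 3 lines hold both a CHR element and a CCAAT box (Ube2c chr2:164769804-164769923, plus strand; Cdk1 chr10:69352918-69353037, minus strand; Cdc20 chr4:118437349-118437468, minus strand). The last holds CCAAT boxes without a CHR element in this stretch (chr13:51645107-51645226, plus strand).
Mcm6: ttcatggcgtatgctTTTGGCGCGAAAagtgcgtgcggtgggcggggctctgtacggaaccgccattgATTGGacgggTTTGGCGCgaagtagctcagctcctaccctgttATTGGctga
Rrm2: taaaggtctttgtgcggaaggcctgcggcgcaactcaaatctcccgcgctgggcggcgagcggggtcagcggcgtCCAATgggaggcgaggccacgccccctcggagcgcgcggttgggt
Ube2c: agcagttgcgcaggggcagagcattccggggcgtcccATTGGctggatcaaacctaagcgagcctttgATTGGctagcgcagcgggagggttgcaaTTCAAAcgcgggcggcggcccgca
Cdk1: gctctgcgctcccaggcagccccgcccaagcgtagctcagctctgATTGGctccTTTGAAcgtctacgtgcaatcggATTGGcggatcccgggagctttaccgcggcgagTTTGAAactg
Cdc20: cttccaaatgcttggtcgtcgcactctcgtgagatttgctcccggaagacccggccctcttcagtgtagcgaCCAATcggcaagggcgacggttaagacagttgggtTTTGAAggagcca
Cks2: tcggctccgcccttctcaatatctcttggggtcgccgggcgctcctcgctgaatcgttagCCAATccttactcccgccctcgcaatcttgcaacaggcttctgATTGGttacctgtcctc

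CHR letters stood in the windows of 19 of 25 mitosis genes (76%), of 4 of 15 S phase genes (26.7%) and of 5854 of all 27025 genes in the table (21.7%). A CHR element together with a CCAAT box was found for 17 of 25 mitosis genes (68%), 3 of 15 S phase genes (20%) and 8.61% of all genes. A CCAAT box alone separated the lists less, at 80% of the mitosis genes, 73.3% of the S phase genes and 41.1% of all genes. E2F-like letters showed the opposite order, with 5 of 15 S phase genes (33.3%, namely Cdc6, Mcm3, Mcm6, Mcm7 and Uhrf1), 1 of 25 mitosis genes (4%, Cdk1) and 2.6% of all genes. These are counts of letters, not of bound sites.

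All 49 genes were well expressed in the WT brain. Over the 12 WT libraries their mean levels ran from 15.5 FPKM for Cenpe, a kinetochore motor, to 330.5 FPKM for Pcna, the sliding clamp of DNA polymerase, with a median of 70.9 FPKM. All 49 lay above the median of 10 FPKM of the 13344 genes whose mean reached 1 FPKM, and 24 lay in the upper 10% of those genes, at or above 73.5 FPKM. The median of the gene means was 81.4 FPKM for the S phase list and 60.2 FPKM for the mitosis list. The highest S phase genes after Pcna were Mcm7, a subunit of the replicative helicase, with 212 FPKM, and Rrm2, a subunit of the enzyme that makes deoxyribonucleotides, with 198 FPKM. Among the mitosis genes the highest were Ube2c, a ubiquitin-conjugating enzyme that acts at anaphase, with 265 FPKM, Cks2, a partner of the cyclin-dependent kinases, with 209 FPKM, and Cdk1, the mitotic kinase, with 169.6 FPKM.

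The level of each list in a library was taken as the mean log2(FPKM + 1) of its genes. In the Mb the S phase level was 6.33 ± 0.11 (SD, n = 6) in WT, with a range of 6.14 to 6.44. It ranged over 6.31 to 6.45 in TKO_Ex, 6.28 to 6.42 in DKO_Ex and 6.28 to 6.38 in DKO_CD. Only the highest TKO_Ex library lay outside the WT range, and all other mutant libraries lay inside it. The mitosis level in the Mb was 5.92 ± 0.13 (SD, n = 6) in WT, with a range of 5.74 to 6.09. All 10 mutant Mb libraries lay inside that range, at 5.91 to 5.997 in TKO_Ex, 5.87 to 5.99 in DKO_Ex and 5.95 to 6.01 in DKO_CD. In the Fb the S phase level was 6.22 to 6.41 in WT, 6.36 to 6.38 in TKO_Ex, 6.22 to 6.36 in DKO_Ex and 6.39 to 6.44 in DKO_CD. The mitosis level in the Fb was 5.79 to 5.99 in WT, 5.84 to 5.99 in TKO_Ex, 5.74 to 5.93 in DKO_Ex and 5.97 to 6.02 in DKO_CD. For both lists the ranges of every mutant group overlapped that of WT in the same tissue. Because the tissue was measured in bulk, fewer cycling cells and less RNA per cycling cell cannot be told apart.

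**Figure D1:**
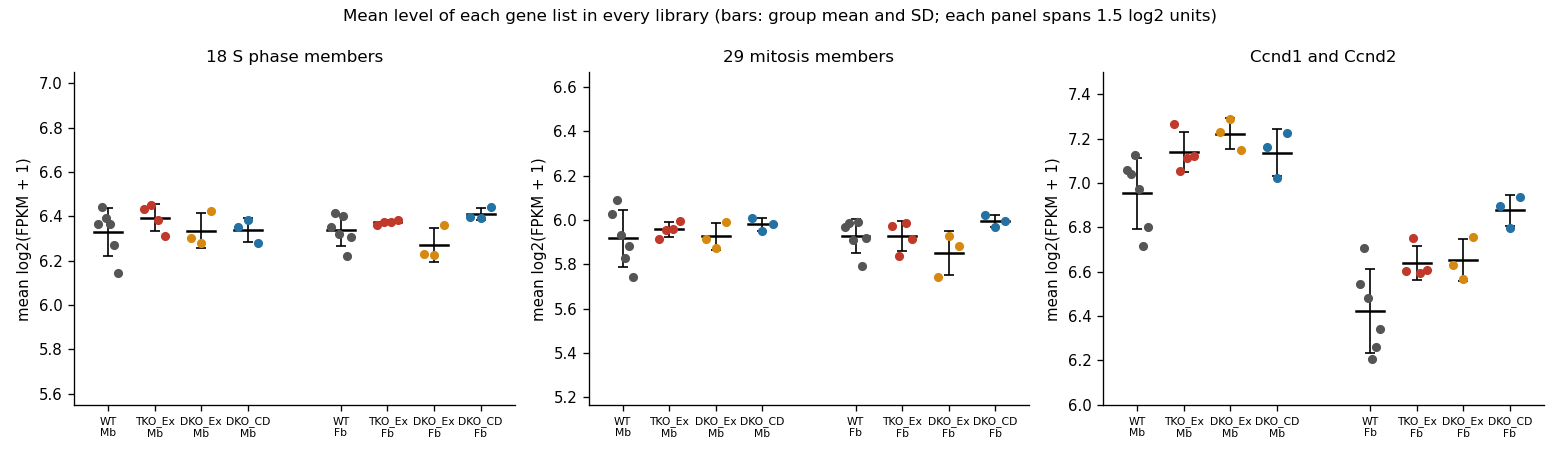
Mean log2(FPKM + 1) of the S phase, mitosis and D cyclin genes (y axes) in each of the 32 libraries, by genotype and tissue (x axis), with bars for the group mean and SD. The S phase and mitosis levels of mutant and WT libraries overlap in both tissues, while in WT the D cyclin level is higher in the Mb (6.72 to 7.13) than in the Fb (6.21 to 6.71).

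In the Mb, which fails to close in the exencephalic embryos, no S phase, mitosis or D cyclin gene passed the test against WT in any of the mutants. For the triple knockout the study also reports closure defects outside the Mb. The test was limma on log2(FPKM + 1), and an adjusted p under 0.05 was called. In TKO_Ex 0 of 49 genes were called against 0.0898% of all genes tested, 2 of 49 (4.08%) were under an unadjusted p of 0.05 against 8.38%, and 1 did not overlap WT against 1.74%. In DKO_Ex 0 of 49 were called against 0.0903%, 2 (4.08%) were under an unadjusted p of 0.05 against 5.46%, and 2 did not overlap WT against 3%. In DKO_CD 0 of 49 were called against 0.0375%, 0 were under an unadjusted p of 0.05 against 6.69%, and 0 did not overlap WT against 3.38%. The members' shares were thus near or under those of all genes in the 3 Mb comparisons. The 95% interval of a gene's log2 fold change reached 0.14 to 0.61 (median 0.23) to either side of the estimate in TKO_Ex and 0.16 to 0.55 (median 0.25) in DKO_Ex, before any adjustment for the number of genes tested, and larger estimates than these half-widths were also not called. The 3 comparisons of a tissue share its WT libraries.

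The median log2 fold changes of the lists in the Mb were close to the median of all genes. The S phase median was 0.06 in TKO_Ex, with 15 of 18 genes higher than in WT, against a median of 0.02 and 53.4% higher over all genes tested. It was -0.03 in DKO_Ex (8 of 18 higher; all genes 0.03 and 55.7%) and 0.02 in DKO_CD (10 of 18 higher; all genes 0.02 and 53.4%). The mitosis medians were 0.04 in TKO_Ex (16 of 29 higher), -0.01 in DKO_Ex (13 of 29) and 0.05 in DKO_CD (23 of 29). The D cyclin medians were larger, at 0.19, 0.27 and 0.18, with both genes above WT each time.

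**Figure D2:**
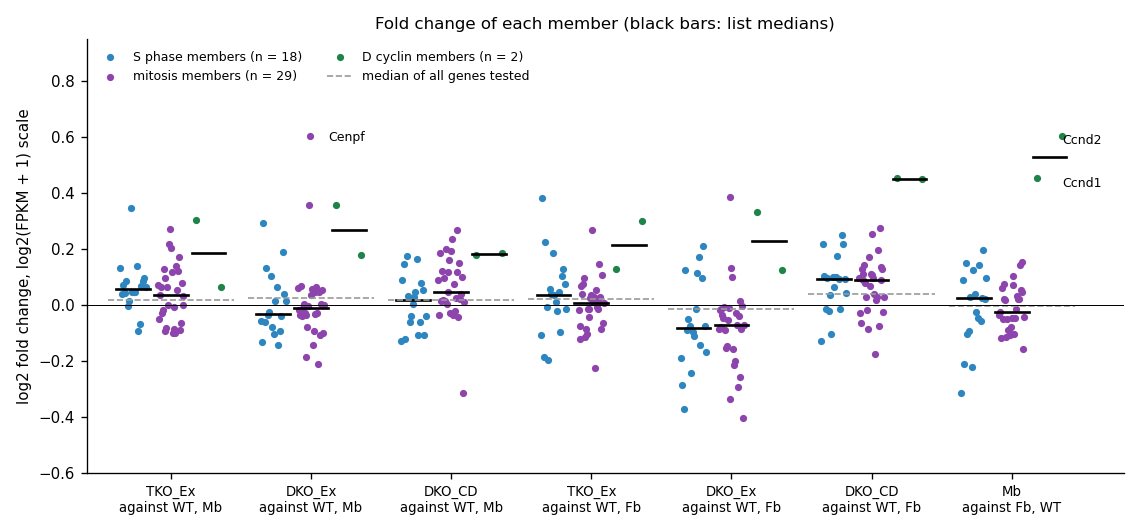
The log2 fold change on the log2(FPKM + 1) scale (y axis) of each of the 49 genes in the 6 comparisons with WT and in the WT Mb against the WT Fb (x axis), with bars for the medians of the lists and dashed lines for the median of all genes tested. The S phase and mitosis medians lie between -0.08 and 0.09, and the D cyclins lie above zero in all 7 comparisons.

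Among the S phase genes of the Mb, Pcna measured from 269 to 365 FPKM (median 329.6) in WT. It measured 341, 417, 367 and 313 FPKM in the 4 TKO_Ex libraries, 344, 300.5 and 377 FPKM in the 3 DKO_Ex libraries and 366, 373 and 353 FPKM in the 3 DKO_CD libraries. Every mutant group overlapped WT, although 2 of 4 TKO_Ex, 1 of 3 DKO_Ex and 2 of 3 DKO_CD libraries were above the highest WT library, and the largest log2 fold change was 0.16 (SE 0.09, adjusted p = 0.822) in DKO_CD. Mcm7 measured from 175 to 248 FPKM (median 213) in WT, 223, 197, 247 and 201 FPKM in TKO_Ex, 199.98, 214 and 222 FPKM in DKO_Ex and 225, 206 and 219 FPKM in DKO_CD. Rrm2 measured from 189 to 243 FPKM (median 208) in WT, 237, 219, 225 and 218 FPKM in TKO_Ex, 231, 227 and 269 FPKM in DKO_Ex and 219.6, 230.3 and 209 FPKM in DKO_CD. For Mcm7 all 10 mutant values, and for Rrm2 all but the highest DKO_Ex value, lay inside the WT range.

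The S phase genes with the smallest p in the exencephalic Mb were another helicase subunit and a helicase cofactor. Mcm3 measured from 103 to 142 FPKM (median 123) in WT and 176, 159, 136 and 152 FPKM in TKO_Ex. Of the 4 TKO_Ex values, 3 were above the highest WT library, and the log2 fold change was 0.35 (SE 0.12, adjusted p = 0.463). In DKO_Ex Mcm3 measured 131, 115 and 149 FPKM and in DKO_CD 118, 122 and 116 FPKM. Cdc45, which joins the helicase at the replication fork, measured from 16.8 to 21.9 FPKM (median 19) in WT and 26.7, 19.03 and 27.5 FPKM in DKO_Ex. Here 2 of the 3 DKO_Ex libraries were above all WT libraries and 1 was inside their range, with a log2 fold change of 0.30 (SE 0.14, adjusted p = 0.904). Cdc45 measured 17.7, 22.2, 23.6 and 19.02 FPKM in TKO_Ex and 21.9, 20.6 and 22.4 FPKM in DKO_CD.

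Among the mitosis genes of the Mb, Mki67 (chr7:135689784-135716361, minus strand, ENSMUSG00000031004), whose protein Ki-67 is the common marker of cycling cells, measured from 42.6 to 48.5 FPKM (median 45.1) in WT. It measured 47.6, 50.03, 50.1 and 51.6 FPKM in TKO_Ex, 48.2, 46.6 and 46.8 FPKM in DKO_Ex and 55.02, 50.2 and 42.5 FPKM in DKO_CD. In TKO_Ex 3 of 4 libraries were above the highest WT library, in DKO_CD 2 of 3 were above it and 1 was under the lowest, and DKO_Ex lay inside the WT range. The log2 fold changes were 0.14 (SE 0.07, adjusted p = 0.63), 0.07 (SE 0.08, adjusted p = 0.968) and 0.12 (SE 0.10, adjusted p = 0.895). Ube2c measured from 219 to 311 FPKM (median 259) in WT, 248, 258, 293 and 244 FPKM in TKO_Ex, 243, 248 and 293 FPKM in DKO_Ex and 263, 254 and 272 FPKM in DKO_CD. Cks2 measured from 172 to 276 FPKM (median 197) in WT, 207, 225, 269 and 242 FPKM in TKO_Ex, 196, 208 and 224 FPKM in DKO_Ex and 229, 213 and 259.6 FPKM in DKO_CD. All mutant values of Ube2c and Cks2 lay inside the WT range. Cdk1 measured from 139 to 183 FPKM (median 165) in WT, 172, 172, 165 and 175 FPKM in TKO_Ex, 155, 134 and 177 FPKM in DKO_Ex and 182, 151 and 175 FPKM in DKO_CD, and 1 DKO_Ex library was under the lowest WT library.

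The member with the largest log2 fold change in the exencephalic Mb was Cenpf (chr1:189640606-189688086, minus strand, ENSMUSG00000026605), a kinetochore protein made in G2 phase. It measured from 17.8 to 20.4 FPKM (median 18.8) in WT and 28.3, 23.1 and 38.2 FPKM in DKO_Ex. All 3 DKO_Ex libraries were above all 6 WT libraries, and the log2 fold change was 0.61 (SE 0.14, adjusted p = 0.431), with a 95% interval of 0.29 to 0.92. In TKO_Ex it measured 21.04, 20.8, 19.7 and 32.6 FPKM, with 3 of 4 libraries above WT and replicate 4 apart from the others, and in DKO_CD 18.4, 17.99 and 19.2 FPKM, inside the WT range. The difference of DKO_Ex from DKO_CD in the Mb was 0.63 (SE 0.18, adjusted p = 0.753), with no overlap, as for 10 of 49 members and 12.2% of all genes in that comparison. In the Fb the 3 DKO_Ex libraries were spread over 15.9, 39.9 and 28.8 FPKM, and WT measured from 16.5 to 25.3 FPKM (median 19.6). In DKO_CD the member with the smallest p among the mitosis genes was Birc5, survivin of the chromosomal passenger complex. It measured from 125 to 151 FPKM (median 133) in WT and 154, 159 and 146 FPKM in DKO_CD, with 2 of 3 libraries above WT and a log2 fold change of 0.19 (SE 0.08, adjusted p = 0.743).

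**Figure D3:**
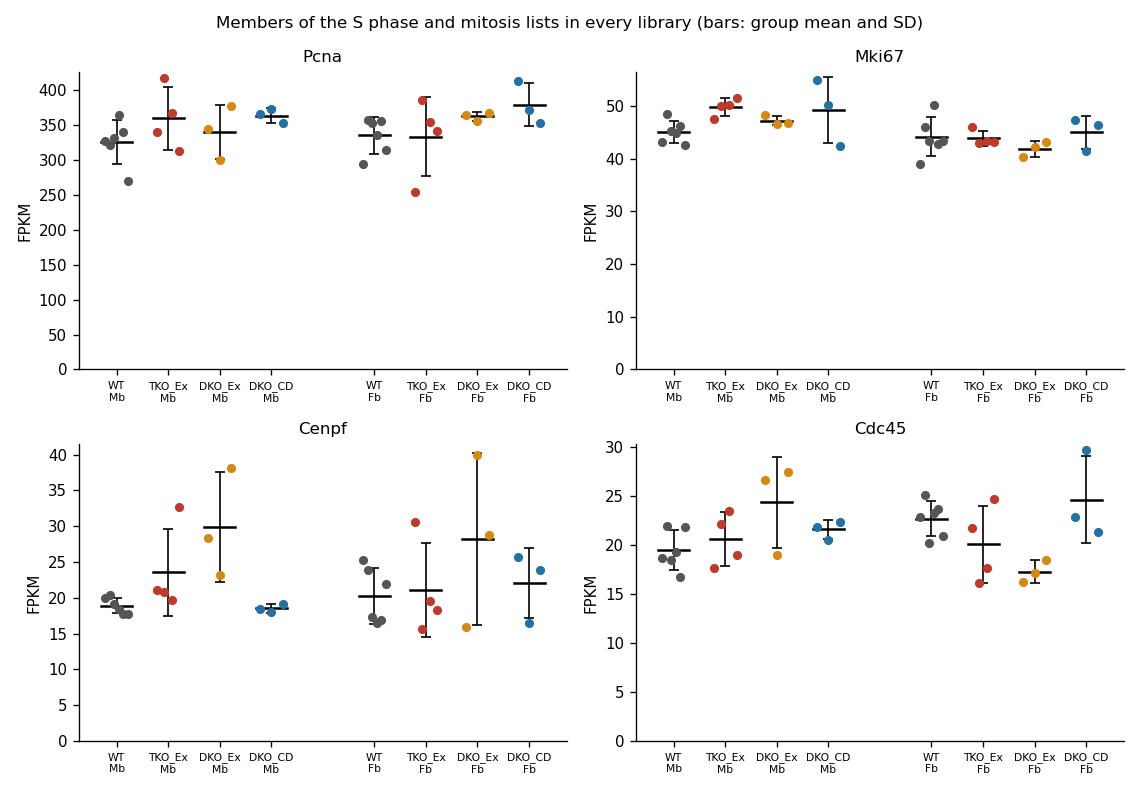
FPKM (y axes, from 0) of Pcna, Mki67, Cenpf and Cdc45 in each library, by genotype and tissue (x axis), with bars for the group mean and SD. The 3 DKO_Ex Mb libraries of Cenpf, at 28.3, 23.1 and 38.2 FPKM, sit above the WT Mb libraries, and the DKO_Ex Fb libraries of Cdc45, at 16.2, 17.2 and 18.5 FPKM, sit under the WT Fb libraries, but neither passed the test.

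In the Fb, the tissue taken from the same set of genotypes for comparison, again no member was called in any mutant. In TKO_Ex 0 of 49 were called against 0.0603% of all genes tested, 3 (6.12%) were under an unadjusted p of 0.05 against 8.66%, and 2 did not overlap WT against 2.23%. In DKO_Ex 0 of 49 were called against 0.0759%, 7 (14.3%) were under an unadjusted p of 0.05 against 7.01%, and 5 did not overlap WT against 3.7%. In DKO_CD 0 of 49 were called against 0.0378%, 7 (14.3%) were under an unadjusted p of 0.05 against 8.44%, and 5 did not overlap WT against 4.22%. The DKO groups of the Fb had more members at a small unadjusted p than the background, with most members lower than in WT in DKO_Ex and most higher in DKO_CD. These counts are not of independent genes, because genes of a list can move together in a library. The mitosis level was lowest in replicate 1 of the DKO_Ex Fb (5.74) and in replicate 5 of the WT Fb (5.79). In DKO_Ex 25 of 29 mitosis and 13 of 18 S phase genes were lower than in WT, with medians of -0.07 and -0.08 against -0.01 over all genes, of which 47.0% were higher. In DKO_CD 22 of 29 mitosis and 13 of 18 S phase genes were higher, with medians of 0.09 and 0.09 against 0.04 over all genes, of which 58.1% were higher. When single libraries were dropped, the mitosis and S phase medians ranged from -0.092 to -0.037 and from -0.12 to -0.058 in DKO_Ex. The mitosis value of -0.037 came without DKO_Ex Fb replicate 1. In DKO_CD they ranged from 0.046 to 0.11 and from 0.046 to 0.10, with 0.046 for mitosis without WT Fb replicate 5 and for S phase without DKO_CD Fb replicate 2. TKO_Ex had medians of 0.01 and 0.04, against 0.02 over all genes, of which 54.2% were higher.

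Of the 7 members under an unadjusted p of 0.05 in the DKO_Ex Fb, 5 were lower than in WT, 4 of them from the mitosis list. Cdc45 measured from 20.2 to 25.2 FPKM (median 23.1) in WT and 16.2, 17.2 and 18.5 FPKM in DKO_Ex. All 3 DKO_Ex libraries were under all 6 WT libraries, with a log2 fold change of -0.37 (SE 0.10, adjusted p = 0.368), whereas in the Mb 2 of 3 were above WT. Ndc80, which ties kinetochores to microtubules, measured from 18.1 to 21.9 FPKM (median 19.8) in WT and 14.4, 16.5 and 17.3 FPKM in DKO_Ex, again with no overlap (-0.29, SE 0.10, adjusted p = 0.581). Cenpe, the mitotic kinase gene Plk1 and the cytokinesis motor gene Kif20a were also under an unadjusted p of 0.05, with log2 fold changes of -0.33, -0.26 and -0.21. Against this direction Rrm2 measured from 174 to 197 FPKM (median 183) in WT and 203, 204 and 236 FPKM in DKO_Ex, all above WT (0.21, SE 0.08, adjusted p = 0.61). The 8 mesenchyme markers were all lower in the DKO_Ex Fb too, 4 of them under an unadjusted p of 0.05, with a summed level of 149.6 to 175 FPKM against 205 to 236 FPKM in WT. All 6 surface ectoderm markers were higher there, 1 under an unadjusted p of 0.05, with a summed level of 116 to 208 FPKM against 76.1 to 133 FPKM in WT, and all 6 primitive red cell markers were lower, none under an unadjusted p of 0.05. None of these markers was called, and their part in the result was not tested.

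In the DKO_CD Fb, Rrm2 measured 216, 229 and 199.6 FPKM, all above WT (0.22, SE 0.07, adjusted p = 0.468). Hmmr, a spindle and hyaluronan-binding protein, measured from 21.6 to 25.4 FPKM (median 22.3) in WT and 28.3, 28.5 and 25.2 FPKM in DKO_CD, with 2 of 3 libraries above WT (0.25, SE 0.09, adjusted p = 0.494). Nusap1, a spindle protein, Cenpa, the histone of the centromere, and Rrm1, the partner of Rrm2, were under an unadjusted p of 0.05 as well, with log2 fold changes of 0.28, 0.17 and 0.25. Markers of the neuroepithelium and of other cell types were followed here too, and none was called. All 7 neuroepithelium markers were higher in the DKO_CD Fb (2 under an unadjusted p of 0.05, summed level 408 to 422 FPKM against 286 to 394 FPKM in WT). The 9 early neuron markers tested were all higher as well (5 under an unadjusted p of 0.05). All 10 measured summed to 41.5 to 68.7 FPKM against 27.3 to 35.6 FPKM in WT. All 6 surface ectoderm markers were higher too (1 under an unadjusted p of 0.05, 107 to 275 FPKM against 76.1 to 133 FPKM), and 6 of 8 mesenchyme markers were lower (1 under an unadjusted p of 0.05). None of these markers was at 0 in a Fb library, and their part in the result was not tested.

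In the TKO_Ex Fb, Fen1, a nuclease that trims Okazaki fragments, measured from 67.2 to 70.4 FPKM (median 70.1) in WT and 61.7, 58, 58.1 and 63.9 FPKM in TKO_Ex. All 4 TKO_Ex libraries were under all 6 WT libraries, with a log2 fold change of -0.20 (SE 0.06, adjusted p = 0.392). Hmmr measured 29.9, 25.2, 30.1 and 25.5 FPKM, with 3 of 4 libraries above WT (0.27, SE 0.09, adjusted p = 0.407). Mcm4, a helicase subunit, did not overlap WT either, with a log2 fold change of 0.19 (SE 0.07, adjusted p = 0.502). The 6 surface ectoderm markers were all higher (5 under an unadjusted p of 0.05, summed level 119 to 301 FPKM against 76.1 to 133 FPKM in WT), and the 8 mesenchyme markers were all lower (4 under an unadjusted p of 0.05, 141 to 191 FPKM against 205 to 236 FPKM). The 9 early neuron markers tested were all higher (3 under an unadjusted p of 0.05), and all 10 measured summed to 33.1 to 71.8 FPKM. None of these markers was called, and their part in the result was not tested.

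The most expressed members of both lists, Rrm2 apart, overlapped WT in the Fb. Pcna measured from 294 to 357 FPKM (median 345) in WT, 254, 386, 354 and 341 FPKM in TKO_Ex, 364, 356 and 367 FPKM in DKO_Ex and 413, 372 and 352 FPKM in DKO_CD. Mcm7 measured from 200.1 to 233 FPKM (median 212) in WT, 204, 238, 227 and 193 FPKM in TKO_Ex, 185, 222 and 229 FPKM in DKO_Ex and 213, 231 and 242 FPKM in DKO_CD. Mki67 measured from 39.1 to 50.3 FPKM (median 43.4) in WT, 46.1, 42.9, 43.4 and 43.2 FPKM in TKO_Ex, 40.3, 42.2 and 43.2 FPKM in DKO_Ex and 47.3, 41.4 and 46.3 FPKM in DKO_CD. Mki67 stayed inside the WT range in all 10 mutant Fb libraries, while Pcna and Mcm7 each had TKO_Ex libraries above and below the WT range. Rrm2 measured 214, 195, 212 and 188 FPKM in the TKO_Ex Fb, with 2 of 4 libraries above WT. Ube2c measured from 245 to 287 FPKM (median 268) in WT and 231, 248, 313 and 292 FPKM in TKO_Ex, 253, 236 and 279 FPKM in DKO_Ex and 281, 262 and 277 FPKM in DKO_CD. Cks2 measured from 183 to 229.5 FPKM (median 215) in WT, 181, 203, 241 and 245 FPKM in TKO_Ex, 236, 234 and 222 FPKM in DKO_Ex and 223, 232 and 225 FPKM in DKO_CD. Cdk1 measured from 129.9 to 213 FPKM (median 179) in WT, 183, 139, 186 and 184 FPKM in TKO_Ex, 138, 170.2 and 199 FPKM in DKO_Ex and 158, 171 and 162 FPKM in DKO_CD. Cdk1 stayed inside the WT range in all 10 mutant libraries, and the largest log2 fold change of these 3 mitosis genes was 0.13 (SE 0.09, adjusted p = 0.797) for Cks2 in the DKO_Ex Fb.

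In WT the D cyclins were the members that differed most between the tissues. Ccnd1 (chr7:144929931-144939925, minus strand, ENSMUSG00000070348) measured from 103 to 128 FPKM (median 120.4) in the WT Mb and from 76.2 to 98.1 FPKM (median 83.8) in the WT Fb. The tissues did not overlap, with means of 117 ± 11.2 and 85.1 ± 7.97 FPKM (SD, n = 6 each), and Ccnd1 was higher in the Mb by 0.45 (SE 0.08, adjusted p = 0.00287) on the log2 scale. Ccnd2 (chr6:127125162-127152193, minus strand, ENSMUSG00000000184) measured from 106 to 152 FPKM (median 132) in the WT Mb and from 67.3 to 109 FPKM (median 81.1) in the WT Fb. Here the tissues overlapped, with means of 131 ± 16.8 and 86.2 ± 16.9 FPKM (SD, n = 6 each), and Ccnd2 was higher in the Mb by 0.61 (SE 0.13, adjusted p = 0.00817). Without WT Mb replicate 5 the log2 differences were 0.49 for Ccnd1 (adjusted p = 0.0025) and 0.66 for Ccnd2 (adjusted p = 0.00599). These 2 genes were the only members called between the WT tissues, 2 of 49 (4.08%) against 8.26% of all genes tested, while 5 (10.2%) were under an unadjusted p of 0.05 against 20.9%. The WT tissues did not overlap for 1 of 49, Ccnd1, against 5.59%. The S phase and mitosis lists had medians of 0.02 and -0.03 between the WT tissues, against a median near zero over all genes, of which 49.4% were higher. No mitosis gene was under an unadjusted p of 0.05, and of the S phase genes Ccne1, a cyclin of S phase entry, had -0.31 (SE 0.10, adjusted p = 0.0754).

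The same comparison within the mutants gave fewer calls from fewer libraries. In TKO_Ex Ccnd1 was higher in the Mb by 0.63 (SE 0.11, adjusted p = 0.0134), the 1 member of 49 called (2.04%) against 2.89% of all genes, and 3 (6.12%) were under an unadjusted p of 0.05 against 12.6%. Without replicate 3 of both tissues this difference was 0.59 with an adjusted p of 0.125, and no member was called. In DKO_Ex 0 of 49 were called against 2.58%, 5 (10.2%) were under an unadjusted p of 0.05 against 14.4%, and the D cyclins had 0.66 (SE 0.14, adjusted p = 0.0639) for Ccnd2 and 0.48 (SE 0.11, adjusted p = 0.0729) for Ccnd1. In DKO_CD 0 of 49 were called against 0.507%, 1 (2.04%) was under an unadjusted p of 0.05 against 10.1%, and the values were 0.34 (SE 0.13, adjusted p = 0.422) for Ccnd2 and 0.18 (SE 0.08, adjusted p = 0.52) for Ccnd1. In all 3 mutant groups every Mb library was above every Fb library for both D cyclins. The tissues did not overlap for 4, 9 and 4 of the 49 members in TKO_Ex, DKO_Ex and DKO_CD, against 8.94%, 20.5% and 15.6% of all genes.

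Against WT, both D cyclins were higher in all 6 comparisons, and none was called. In the Mb, Ccnd1 measured 151, 144, 146 and 136 FPKM in TKO_Ex, 155, 162 and 133 FPKM in DKO_Ex and 128, 134 and 134 FPKM in DKO_CD. All TKO_Ex and DKO_Ex libraries were above the highest WT library, with log2 fold changes of 0.30 (SE 0.09, adjusted p = 0.312) and 0.36 (SE 0.11, adjusted p = 0.669), while DKO_CD overlapped WT (0.18, SE 0.10, adjusted p = 0.812). In the Fb, Ccnd1 measured 98.5, 108, 85.95 and 80.8 FPKM in TKO_Ex, 107, 112 and 102 FPKM in DKO_Ex and 115, 112 and 123 FPKM in DKO_CD. Here all DKO_Ex and DKO_CD libraries were above WT (0.33, SE 0.09, adjusted p = 0.377, and 0.45, SE 0.09, adjusted p = 0.204), and TKO_Ex overlapped it (0.13, SE 0.10, adjusted p = 0.754). Ccnd2 measured 155, 120.3, 129.5 and 141 FPKM in the TKO_Ex Mb, 143, 148 and 149 FPKM in the DKO_Ex Mb and 158, 124 and 165 FPKM in the DKO_CD Mb. In the Fb it measured 93.7, 105, 106 and 115 FPKM in TKO_Ex, 90.1, 78.4 and 112 FPKM in DKO_Ex and 121, 108 and 119.9 FPKM in DKO_CD. It overlapped WT in every group, and its largest log2 fold change was 0.45 (SE 0.15, adjusted p = 0.471) in the DKO_CD Fb. The sign of its difference in the TKO_Ex Mb (0.07) turned under quantile normalization (-0.02).

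**Figure D4:**
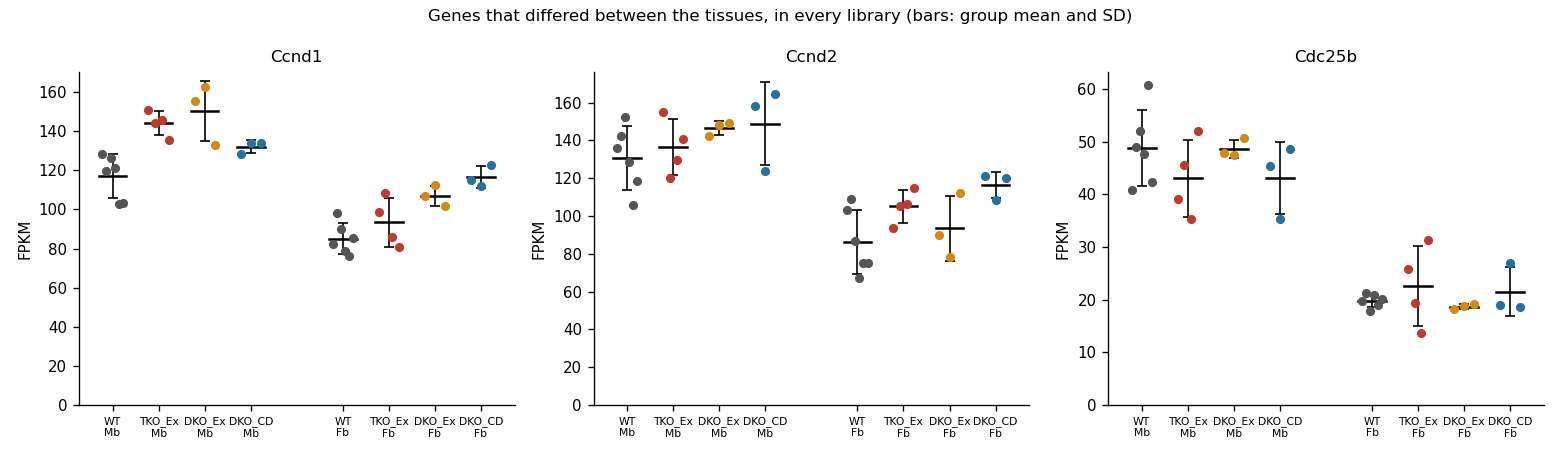
FPKM (y axes, from 0) of Ccnd1, Ccnd2 and the phosphatase gene Cdc25b in each library, by genotype and tissue (x axis), with bars for the group mean and SD. Ccnd1 lies at 103 to 128 FPKM in the WT Mb and 76.2 to 98.1 FPKM in the WT Fb, and Cdc25b at 40.8 to 60.8 and 17.8 to 21.2 FPKM.

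Whether a mutant's effect differed between the Mb and the Fb was tested as an interaction of genotype and tissue, and no member passed. In TKO_Ex 0 of 49 were called against 0.0149% of all genes, and 1 (2.04%) was under an unadjusted p of 0.05 against 6.5%. In DKO_Ex 0 of 49 were called against 0%, and 3 (6.12%) were under an unadjusted p of 0.05 against 3.88%. In DKO_CD 0 of 49 were called against 0.00746%, and 2 (4.08%) were under an unadjusted p of 0.05 against 4.83%. The largest of these differences were in DKO_Ex, with 0.67 (SE 0.17, adjusted p = 0.883) for Cdc45 and 0.69 (SE 0.27, adjusted p = 0.9996) for Cenpe, both more positive in the Mb than in the Fb. In DKO_CD Ccnd1 had -0.28 (SE 0.13, adjusted p = 0.99), a smaller change in the Mb than in the Fb. The DKO_Ex and DKO_CD groups were taken to differ in whether the Mb is open and, by the labels, also differ in genotype. Between their Mb libraries 0 of 49 were called against 0.045%. Of the 49, 2 (4.08%), Cenpf and Birc5, were under an unadjusted p of 0.05 against 6.48%. Birc5 was lower in DKO_Ex, at 123, 127 and 144 FPKM (-0.22, SE 0.09, adjusted p = 0.762). In that comparison the S phase median was -0.03 and the mitosis median -0.09, with 23 of 29 mitosis genes lower in DKO_Ex, against 0.01 over all genes. The 8 mesenchyme markers were also all lower in DKO_Ex than in DKO_CD in the Mb (2 under an unadjusted p of 0.05, summed level 152 to 207 FPKM against 194 to 287 FPKM, with 116 to 216 FPKM in WT). Their part in the result was not tested.

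Other genes of the cell cycle were taken from further lists. None of 32 other replication genes was called in the 6 comparisons with WT, against 0.0375% to 0.0903% of all genes tested. Under an unadjusted p of 0.05 the shares of all genes were 8.38%, 5.46% and 6.69% in the Mb of TKO_Ex, DKO_Ex and DKO_CD. In the Fb they were 8.66%, 7.01% and 8.44%. Of the 32 genes there were 0, 1 and 1 under that p in the Mb, and 2, 5 and 1 in the Fb. In the DKO_Ex Fb 4 of these 5 were lower, Rpa3, Pold2, Rfc4 and Tyms, at -0.36, -0.32, -0.29 and -0.42, and Orc6 was higher at 0.25. None of 22 cell cycle regulators (0, 0 and 1 in the Mb and 2, 3 and 1 in the Fb under an unadjusted p of 0.05) and none of the 10 or 11 inhibitors and exit genes tested (1, 0 and 0 in the Mb and 2, 1 and 1 in the Fb) was called. Of the cyclin-dependent kinase inhibitors, Cdkn1c had log2 fold changes of -0.20, -0.24 and 0.21 in the Mb of TKO_Ex, DKO_Ex and DKO_CD and of 0.34, 0.11 and 0.46 in the Fb. Cdkn1b had log2 fold changes of 0.06, 0.06 and 0.04 in the Mb and of -0.38, -0.12 and 0.07 in the Fb, and the lowest adjusted p of both genes was 0.447.

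Of 39 other mitosis genes, 1 was called against WT, Pttg1 (chr11:43420250-43426251, minus strand, ENSMUSG00000020415), which encodes securin, the inhibitor of separase until anaphase. Pttg1 was called in DKO_Ex only, where 0.0903% of all genes tested were called in the Mb and 0.0759% in the Fb. Under an unadjusted p of 0.05 there were 3, 2 and 1 of the 39 in the Mb of TKO_Ex, DKO_Ex and DKO_CD, against 8.38%, 5.46% and 6.69% of all genes. In the Fb there were 3, 5 and 4, against 8.66%, 7.01% and 8.44%. In the Mb, Pttg1 measured from 69.6 to 120.3 FPKM (median 92.8) in WT and 30.1, 29.3 and 40.1 FPKM in DKO_Ex. It measured 27.1, 31.9, 29.7 and 70.4 FPKM in TKO_Ex and 28.4, 97.6 and 118 FPKM in DKO_CD. In the Fb it measured from 57.4 to 94.7 FPKM (median 87.9) in WT, 18.8, 28.8, 38.1 and 59.6 FPKM in TKO_Ex, 28.6, 21.1 and 17.4 FPKM in DKO_Ex and 22.1, 85.7 and 111 FPKM in DKO_CD. All DKO_Ex libraries were under all WT libraries in both tissues, and Pttg1 fell by 1.45 (SE 0.16, adjusted p = 0.0119) on the log2 scale in the Mb and by 1.86 (SE 0.18, adjusted p = 0.00566) in the Fb. In TKO_Ex replicate 4 was the highest of the group in both tissues, and the log2 fold changes were -1.30 (SE 0.24, adjusted p = 0.117) and -1.27 (SE 0.26, adjusted p = 0.183). Without WT Mb replicate 5 the DKO_Ex Mb value was -1.53 (adjusted p = 0.00661). Without TKO_Ex Mb replicate 4, a library seen to stand apart, the TKO_Ex Mb log2 fold change was -1.60 with an adjusted p of 0.00353. Over the 10 fits that dropped single Mb libraries, the TKO_Ex value ran from -1.60 to -1.16, with an adjusted p of 0.00353 to 0.346. The fit without both WT Mb replicate 5 and TKO_Ex Mb replicate 3 gave -1.28 (adjusted p = 0.329). In DKO_CD replicate 1 was low and the other 2 replicates were inside or above the WT range in both tissues, and the log2 fold changes were -0.40 (SE 0.37, adjusted p = 0.908) and -0.45 (SE 0.41, adjusted p = 0.789). The labels do not say whether Mb and Fb libraries of 1 number come from 1 embryo. With the 4 groups of a tissue in one fit the log2 fold changes in DKO_Ex were the same, at -1.45 in the Mb and -1.86 in the Fb, but the calls were lost (adjusted p = 0.334 and 0.169). Without DKO_Ex Mb replicate 1 or 2 the Mb value was -1.39 or -1.37, with an adjusted p of 0.0602 or 0.0792.

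**Figure D5:**
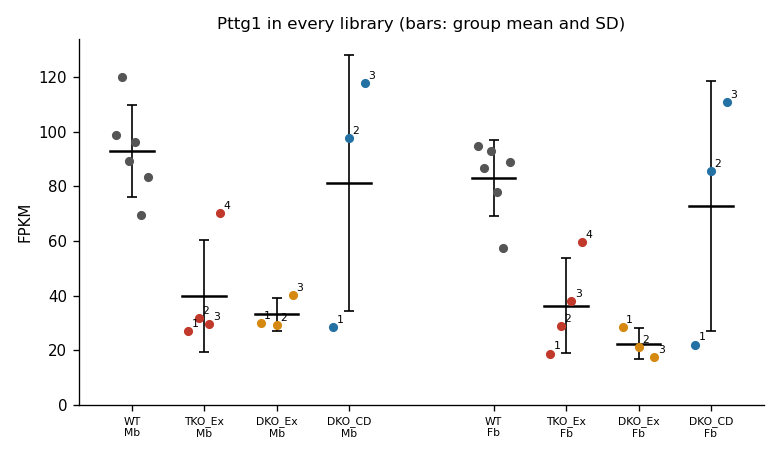
FPKM of Pttg1 (y axis, from 0) in each library, by genotype and tissue (x axis), with bars for the group mean and SD and replicate numbers beside the mutant points. All DKO_Ex libraries, at 30.1, 29.3 and 40.1 FPKM in the Mb and 28.6, 21.1 and 17.4 FPKM in the Fb, sit under the WT libraries, and DKO_CD replicate 1, at 28.4 and 22.1 FPKM, sits apart from the other DKO_CD libraries.

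Between the WT tissues, 9 of 104 genes tested from these further lists were called, 8.65% against 8.26% of all genes, a share near the background. They are named after their values were seen. Cdc25b (chr2:131186949-131198497, plus strand, ENSMUSG00000027330), the phosphatase that activates Cdk1, measured from 40.8 to 60.8 FPKM (median 48.3) in the WT Mb and from 17.8 to 21.2 FPKM (median 19.99) in the WT Fb, with no overlap, and was higher in the Mb by 1.25 (SE 0.10, adjusted p = 1.76e-06). The exit genes Gadd45g, Btg2 and Cdkn1a were higher in the Mb by 2.28, 1.05 and 1.31, as were E2f1 (0.48) and the retinoblastoma family gene Rbl1 (0.44). Myc (-0.61), the polymerase subunit gene Pold2 (-0.45) and Cks1b (-0.32) were lower. Between the same tissues 9 of 10 early neuron markers were called higher in the Mb, where their summed level was 102 to 209 FPKM against 27.3 to 35.6 FPKM in the Fb. Of 7 neuroepithelium markers 3 were called higher (484 to 618 against 286 to 394 FPKM). Of 8 mesenchyme markers 5 were called lower and 1 higher (116 to 216 against 205 to 236 FPKM). All 5 surface ectoderm markers tested were called lower, and all 6 measured summed to 25.1 to 45.5 against 76.1 to 133 FPKM. Of 5 midbrain markers 4 were called higher. The part of these markers in the D cyclin and Cdc25b differences was not tested.

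Markers of other cell types were followed in the mutant Mb as well. Of 8 mesenchyme markers 6, 8 and 8 were higher in TKO_Ex, DKO_Ex and DKO_CD, with 1, 0 and 6 under an unadjusted p of 0.05. In DKO_CD they had a summed level of 194 to 287 FPKM against 116 to 216 FPKM in WT. The 10 early neuron markers had 2, 3 and 3 higher in TKO_Ex, DKO_Ex and DKO_CD, with 1, 0 and 0 under an unadjusted p of 0.05, and the 7 neuroepithelium markers had 4 higher in each group. Of 6 primitive red cell markers 5, 0 and 0 were higher, none under an unadjusted p of 0.05, with a summed level of 5871 to 8975 FPKM in DKO_Ex against 4687 to 21361 FPKM in WT. The 6 endothelium markers had 3, 5 and 3 higher, with 0 under an unadjusted p of 0.05. Of 5 midbrain markers 5, 4 and 4 were higher, none under an unadjusted p of 0.05, with median log2 fold changes of 0.52, 0.75 and 0.04. No marker of these lists was called in a mutant Mb, and none was at 0 in a Mb library. Of 4 surface ectoderm markers tested, 3, 3 and 4 were higher, with 0, 0 and 1 under an unadjusted p of 0.05. All 6 measured summed to 21.3 to 85.7 FPKM in DKO_CD against 25.1 to 45.5 FPKM in WT. Grhl3, a gene of the surface ectoderm at the closing neural tube, was at 0 in 2 of 6 WT Mb libraries. The part of all these markers in the results of the members was not tested.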

How the data were processed

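RNA of E9.5 Fb and Mb was measured in 32 libraries. According to the study's methods and the submitters' processing notes, the authors made directional libraries, aligned reads to GRCm38 (mm10) with TopHat2 and deposited Cufflinks FPKM per gene, normalized to transcript length and mapped fragments. Tool versions and the annotation are not given in the sources used here. For their own tests the authors used HTSeq counts and DESeq2, neither of which entered the tests below. FPKM of 65 repeated identifiers were summed, and 48218 of 48576 identifiers were named with GENCODE M21. Depth was estimated from the steps between low FPKM values in 771 genes with 1 transcript no shorter than 4000 bp, where 86.6 to 92.3% of values came out whole within 0.05 fragments.

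DKO libraries were grouped by column heading, which differs from the record in 12 files. Differences were tested by limma 3.58.1 (R 4.3.3), with a trend of variance on level, from log2(FPKM + 1) of genes averaging 1 FPKM or more, with Benjamini-Hochberg adjustment over all of them and a threshold of 0.05. Each comparison had its own fit with the groups it names, and Mb and Fb libraries were taken as unpaired. Fold changes on this scale understate those of low genes. The script was tested on simulated data. Tables and figures used Python 3.11.15 with pandas 2.3.3. Values by library, with the range and median for groups of 6 and in the groups compared for genes named by their p, are given for the 3 most expressed S phase and mitosis genes, for Ccnd1, Ccnd2, Mki67 and Pcna, for the gene of each list with the smallest p in each comparison with WT, and for any gene called there. The members and all lists were chosen with earlier results of these data known. Tubb3 and Foxc2 of the marker lists, like Cdt1 and Gins2, are not analysed here. Alternatives changed the filter, pseudocount, scaling, trend, block, grouping and libraries. The fit without WT Mb replicate 5 and TKO_Ex replicate 3 was chosen after seeing the data.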

Additional observations from a re-analysis of the deposited data

Results flagged for a closer look

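In 84 groups of 4 or 6 libraries, drawn from 18 genes and 3 lists, a library stood apart from the others of its group by Dixon's test in 7, where chance gives about 1 in 20. In the TKO_Ex Mb, replicate 4 had 32.6 FPKM of Cenpf, with the next library at 21.04, and 70.4 FPKM of Pttg1, with the next at 31.9. In the TKO_Ex Fb, replicate 2 had a D cyclin level of 6.75 against a next value of 6.61 on the log2 scale, and 139 FPKM of Cdk1 against 183. Replicate 1 of the same group had 46.1 FPKM of Mki67 against 43.4. In WT, Hmmr was at 35.1 FPKM in Mb replicate 2 against 24.6, and at 25.4 FPKM in Fb replicate 4 against 22.8.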

How the results depend on the processing

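No member was called in any of 112 alternatives of the 6 comparisons with WT or of 82 of the 3 interactions, nor between the DKO_Ex and DKO_CD Mb. For Mb against Fb, the count in WT rose from 2 to 4 with median-of-ratios scaling and to 5 with quantile normalization, and was 2 to 3 with each library left out in turn. In TKO_Ex it was 0 without the libraries that stand apart (Ccnd1 0.59, adjusted p = 0.125). In DKO_Ex it rose from 0 to 1 with quantile normalization (Ccnd2 0.72, adjusted p = 0.0364), and was 0 to 1 with each library left out, the 1 being without DKO_Ex Fb replicate 3 (Ccnd2 0.80, adjusted p = 0.0289).

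With the DKO groups by record the DKO_Ex Fb medians were 0.094 (S phase) and 0.089 (mitosis), and the DKO_CD Fb medians -0.082 and -0.069. Between Mb and Fb the S phase medians became -0.057 in DKO_Ex and 0.066 in DKO_CD, and the DKO_CD mitosis median 0.080 (0.024 with quantile normalization). For DKO_Ex against DKO_CD in the Mb they became 0.033 and 0.094, the mitosis median was -0.057 with quantile normalization, and with each library left out the S phase median ranged from -0.044 to 0.024 and the mitosis median from -0.10 to -0.056. By record Cenpf in the DKO_Ex Mb turned to -0.028, Birc5 in the DKO_CD Mb to -0.034, Cdc45 in the DKO_Ex Fb to 0.10 and Ndc80 there to 0.20, while Pttg1 in DKO_Ex was -0.40 and -0.45 in the Mb and Fb and no longer called. Ccnd2 turned to -0.021 in the TKO_Ex Mb with quantile normalization, and ranged from -0.014 (without replicate 3) to 0.24 in the DKO_Ex Fb with each library left out. Pttg1 in DKO_CD ranged from -0.78 to 0.22 in the Mb and from -0.89 to 0.25 in the Fb, turning without replicate 1. Grouping by record only exchanges the names of the DKO groups. Each value by record is thus the main value of the other DKO group, or its opposite sign where the DKO groups are compared. The cause of the other changes was not tested.

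The labels do not say that a replicate number marks 1 embryo, so the libraries were not taken as pairs. If same-numbered Mb and Fb libraries share an embryo, the main fits of Mb against Fb and the interactions left that pairing out. Pttg1 was low in DKO_CD replicate 1 in the Mb (28.4 FPKM) and the Fb (22.1 FPKM). Cdh6 was high for its group in TKO_Ex replicate 3 in both tissues (3.10 and 3.74 FPKM). Correlations by number were weak, and pairing of Mb and Fb was neither shown nor refuted. Correlations of same-numbered deviations were 0.0076 to 0.14 between Mb and Fb of a genotype, where 5 of 6 WT, 3 of 4 TKO_Ex, 3 of 3 DKO_Ex and 2 of 3 DKO_CD numbers correlated best with their own, a hint from the data and not from the design, and -0.086 to 0.049 between mutants and WT. In comparisons with WT the replicate block matches mutant and WT libraries by number, although these came from different matings. No mutant number correlated best with its own WT number, so a call lost with this block says little about the gene. With this block Ccnd2 turned to -0.039 in the TKO_Ex Mb and to -0.10 in the DKO_Ex Fb. Pttg1 in DKO_Ex was no longer called (-1.61, adjusted p = 0.752 in the Mb and -2.01, adjusted p = 0.198 in the Fb). The block left the counts of called members at 0 in the comparisons with WT. For Mb against Fb, where the block treats same-numbered libraries as pairs, the counts were 2 in WT, 1 in TKO_Ex and 0 in both DKO groups. With the block the count was 0 in each interaction. At an estimated 2.08 to 3.43 M fragments, genes at a few FPKM rest on few fragments.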
